A study of Mus musculus with 51 samples.

Results

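The genes described here make proteins that act in or regulate splicing, the removal of introns. They include the CLK kinases, which phosphorylate some of the others. Members were all probe sets whose only gene symbol was an Srsf, Snrp or Hnrnp gene, Clk1 to Clk4, Tra2a, Tra2b or Pcbp2, which gave 103 of the 22626 probe sets and 42 of 12393 genes. By role they were 50 probe sets of 18 hnRNP genes, 28 of 9 SR protein genes, 8 of 5 genes of the Sm core, 7 of 3 genes of U1 and U2 snRNP proteins, 5 of 4 CLK kinase genes, 3 of 2 Tra2 genes and 2 of Pcbp2. A filter on dim probe sets left 94 member probe sets of 41 genes in the larger table (12 h, 48 h, 15 d), and 97 of 41 genes in the smaller one (6 d, 9 d). Snrpn, an Sm protein gene of neurons, was the gene left out of the first.

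The study measured RNA of ventral prostate from FVB mice, aged 8 to 10 weeks on a standard diet, on 51 Affymetrix arrays, 1 for each sample. Placebo was given to wild type mice (12 h with 4 arrays, 48 h with 4, 15 d with 3) and to mice carrying an AKT1 transgene (4, 5 and 7 arrays at those times, and 1 each at 6 d and 9 d). RAD001 was given to transgenic mice (5, 4 and 6 arrays, with 3 at 6 d and 4 at 9 d). RAD001, also named everolimus, inhibits mTOR, a kinase that acts downstream of AKT. The stated aim was to tell markers of exposure to the drug from markers of response to it. No wild type mice received RAD001, so every RAD001 effect here is an effect in transgenic prostate. The promoter that drives the transgene, the dose and the number of mice behind a sample were not stated in any source at hand, and p-values measure only the spread between these samples.

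SR proteins bind short sequences in exons and recruit the splicing machinery, and hnRNPs bind the same transcripts and often act against exon inclusion. CLK kinases phosphorylate the arginine and serine repeats of SR proteins in the nucleus and so release them from storage in nuclear speckles. Sm proteins form the ring that holds the small nuclear RNA of each spliceosomal snRNP. Many of these genes are themselves alternatively spliced, and a probe set reads only the short stretch of transcript that it was designed on.

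Promoter sequences are shown for the genes that changed first under RAD001, or are closest to them by role, because each may be set beside the array values that follow. They run for 250 bases up to the annotated start (RefSeq, mouse build GRCm38.p6), each written 5′ to 3′ on its gene's strand. The Clk4 promoter spans chr11:51262864-51263113 on the plus strand and has 64.4% G and C. That of Srsf3 lies at chr17:29032410-29032659 on the plus strand (69.6% G and C), that of Hnrnpa2b1 at chr6:51469895-51470144 on the minus strand (59.6%), and that of Pcbp2 at chr15:102470289-102470538 on the plus strand (70.4%). Capitals mark the core of the cyclic AMP response element, TGACGT or its reverse complement on either strand.
Clk4: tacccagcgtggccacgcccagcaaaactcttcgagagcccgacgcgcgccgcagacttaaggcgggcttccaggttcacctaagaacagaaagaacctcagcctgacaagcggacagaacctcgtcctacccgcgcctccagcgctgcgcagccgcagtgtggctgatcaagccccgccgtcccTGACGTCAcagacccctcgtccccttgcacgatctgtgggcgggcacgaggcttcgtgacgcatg
Srsf3: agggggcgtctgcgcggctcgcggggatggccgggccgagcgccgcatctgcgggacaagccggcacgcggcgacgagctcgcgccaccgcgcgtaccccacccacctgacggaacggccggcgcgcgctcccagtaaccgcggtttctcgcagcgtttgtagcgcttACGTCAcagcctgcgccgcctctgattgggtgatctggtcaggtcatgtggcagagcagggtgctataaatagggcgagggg
Hnrnpa2b1: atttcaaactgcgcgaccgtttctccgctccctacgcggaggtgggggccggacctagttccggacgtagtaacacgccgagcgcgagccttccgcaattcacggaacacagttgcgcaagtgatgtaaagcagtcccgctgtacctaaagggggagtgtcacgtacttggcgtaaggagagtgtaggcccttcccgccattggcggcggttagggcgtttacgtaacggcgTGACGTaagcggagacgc
Pcbp2: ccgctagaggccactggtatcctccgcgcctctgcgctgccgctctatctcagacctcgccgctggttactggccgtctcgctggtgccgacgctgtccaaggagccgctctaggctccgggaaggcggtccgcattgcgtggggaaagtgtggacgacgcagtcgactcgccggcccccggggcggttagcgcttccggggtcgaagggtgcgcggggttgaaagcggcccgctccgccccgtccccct
In the Clk4 promoter the element was present on both strands in overlapping copies, at -65 and -63 from the start. Srsf3 had 1 copy at -82 and Hnrnpa2b1 had 1 at -18, while these letters were not in the 250 bases of Pcbp2. Hnrnpa2b1 and Pcbp2 each have 2 annotated starts, and the sequence shown is that of the first. From the second start of Hnrnpa2b1 the element lies at -67, with a heat shock element core at -38, and the second window of Pcbp2 holds none. A promoter was matched for 38 of the 42 genes, and Clk1, Hnrnpll, Hnrnpul2 and Snrpb had no entry. The element was found in 10 of the 38 (26.3%), namely Clk4, Hnrnpa2b1, Hnrnph1, Hnrnpm, Snrpg, Srsf11, Srsf3, Srsf6, Tra2a and Tra2b, against 7.3% of 27025 mouse genes. The ETS site CCGGAAGT was in 5 of 38 (13.2%) against 3.2%, the heat shock element core GAANNTTC in 5 (13.2%) against 7.7%, the E-box CACGTG in 3 (7.9%) against 6.9%, and the NRF1 site in 1 (2.6%) against 0.9%. A gene was counted if any of its annotated starts had the letters. These shares are a description of letters in a window, with both strands searched. The 27025 genes were not matched to the members for G and C content or for number of annotated starts.

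Array medians ran from 91.6 to 109.3 in the table of 42 arrays and from 98.1 to 110.4 in the table of 9, in units of scaled intensity. The 15 d arrays fell into separate sets along the first principal component: set A held all 3 wild type arrays, 2 of transgenic placebo and 2 of RAD001, and set B held 5 of transgenic placebo and 4 of RAD001. The counts of 15 d calls and the 15 d calls given with values are therefore also given within these sets or with the set as a block in most cases. On the same component the wild type arrays of 48 h lay at -6.1 to 3.2. Those of 12 h lay at -30.1 to -18.2, and transgenic placebo of 48 h at -28.5 to -14.9. The part of this shift in the 48 h genotype calls and the wild type time calls was not tested. Exact zeros were listed for 22 member probe sets (38 values on 17 arrays), and 79 of the tested members had none. On the Akt1 probe set 1425711_a_at, transgenic placebo arrays read 101 to 239 at 12 h and 48 h and wild type arrays 39.7 to 87.0, without overlap, whereas at 15 d transgenic placebo ran from 25.2 to 210 and wild type from 106 to 157. On the other Akt1 probe set, 1416657_at, transgenic placebo read 781 to 926 at 12 h and wild type 424 to 671. The genotypes overlapped there at 48 h (641 to 870 against 644 to 872) and at 15 d (617 to 908 against 717 to 970). Whether either probe set reads the transgene's transcript was not tested. Pbsn, which encodes probasin, a secretory protein of prostate luminal cells, read 1560 to 6714 over the arrays of the larger table.

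Of the member probe sets that changed with genotype on average over times, most were lower in transgenic placebo than in wild type prostate. Those called lower included Clk1, both Pcbp2 probe sets and 9 hnRNP probe sets, while SR protein probe sets were called in both directions. Averaged over 12 h, 48 h and 15 d, 32 of 94 member probe sets changed (34.0%), 8 higher and 24 lower, by limma with Benjamini-Hochberg adjusted p under 0.05. Each difference is one of group means of log2 intensity, from 1 fit over 42 arrays. Of all 13574 probe sets tested, 33.5% changed, 15.1% higher and 18.4% lower, so the share of members called was near the background. Of the members 8.51% were higher and 25.5% lower. With arrays scaled to their medians the split was 11 higher and 20 lower, and with quantile normalisation 11 and 22. The shares of all probe sets under these scalings are not given, so the members were not compared with the background there. By role, 3 of 5 CLK probe sets, 4 of 7 Sm probe sets and both Pcbp2 probe sets were lower with none higher. Of 45 hnRNP probe sets 2 were higher and 9 lower, of 27 SR protein probe sets 6 were higher and 5 lower, 1 of 5 of the U1 and U2 proteins was lower, and limma called none of the 3 Tra2 probe sets (-0.07 for Tra2a, -0.13 and -0.01 for Tra2b, with 1 at an unadjusted p under 0.05). The members' median log2 difference was -0.08, and that of all probe sets -0.04. At 12 h alone 13 members were called higher and 4 lower (13.8% and 4.26%), against 10.8% and 10.2% of all probe sets. The mean over times takes in set B of 15 d, which holds no wild type array, and its count within the sets is not given.

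Cell type markers moved with genotype as well. Averaged over times, luminal markers were higher in transgenic prostate (6 of 9 probe sets, none lower), and smooth muscle (9 of 10), basal (4 of 4) and fibroblast markers (6 of 12) were lower. Of leukocyte markers 1 of 6 was lower, and of endothelial markers 1 of 3 was higher. Among all probe sets 15.1% were higher and 18.4% lower. The summed intensity of 14 smooth muscle probe sets ran from 10040 to 15480 in wild type, 5202 to 8767 in transgenic placebo and 7765 to 12320 under RAD001. For the 9 luminal probe sets it ran from 17010 to 20690, 22540 to 31380 and 17540 to 27590. Basal sums were 829.6 to 1210 in wild type and 604.4 to 996.5 in transgenic placebo, and fibroblast sums 5597 to 9128 and 3248 to 5999. In whole tissue, fewer cells of a type and less RNA per cell cannot be told apart, and the part of these cell types in the members' differences was not tested.

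**Figure D1:**
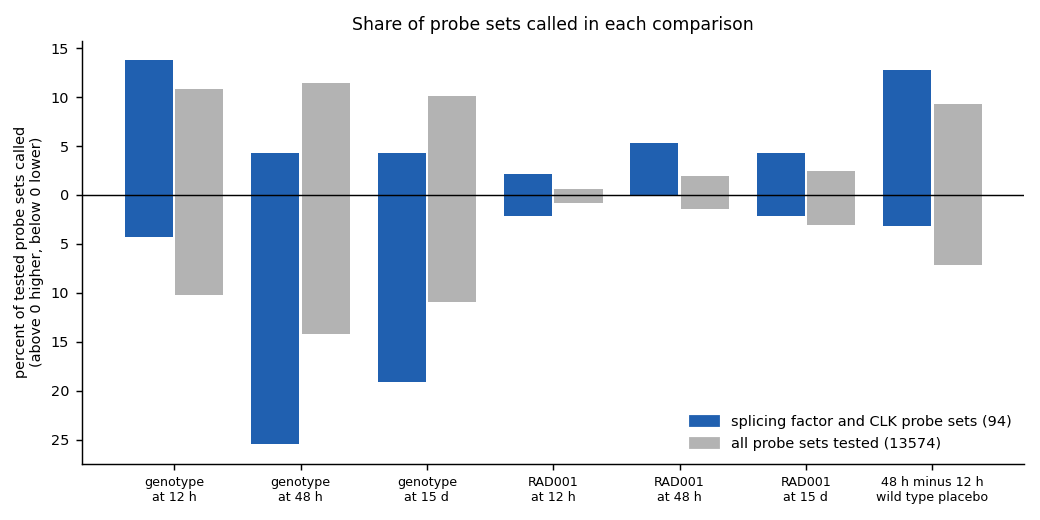
Share of probe sets that changed in each of 7 comparisons (percent, adjusted p under 0.05 by limma), with splicing factors and CLK kinases beside all 13574 probe sets tested, higher drawn above 0 and lower below. In the genotype comparison at 48 h, 25.5% of members were lower against 14.2% of all probe sets; under RAD001 at 48 h 5.32% were higher against 1.97%.

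Clk1, a kinase of SR proteins, was called lower in transgenic than in wild type prostate at 12 h and 48 h. At 12 h the wild type placebo arrays read 320, 402, 350 and 320, and the transgenic placebo arrays 187, 174, 294 and 235. At 48 h the wild type read 544, 515, 361 and 478, and transgenic placebo 236, 275, 338, 299 and 283. Groups did not overlap at either time. The log2 difference was -0.67 ± 0.14 (SE) at 12 h (adjusted p = 0.000799) and -0.72 ± 0.14 at 48 h (adjusted p = 0.000174, limma). At 15 d wild type read 533, 501 and 506 and transgenic placebo 332 to 476 with a median of 400, which did not overlap either. Limma did not call that difference of -0.37 (adjusted p = 0.0541), and no value within the sets was computed for it. Whether the genotype effect on Clk1 differed between times did not pass limma's moderated F test (adjusted p = 0.312). Averaged over times the difference was -0.59 ± 0.08 (adjusted p = 5.14e-07), and the call held in each of 27 refits that left out 1 array.

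Clk4, the closest relative of Clk1, was lower by 1 of its 2 probe sets. On 1427663_a_at the wild type arrays read 95.3, 110, 112 and 116 at 48 h, and transgenic placebo 58.9, 78.0, 71.2, 69.0 and 83.0. All 5 transgenic arrays were below all 4 of wild type, with a log2 difference of -0.59 ± 0.15 (adjusted p = 0.00278). At 15 d wild type read 176, 156 and 203 and transgenic placebo 90.7 to 131, a difference of -0.65 ± 0.15 (adjusted p = 0.00281). Within set A that difference was -0.46 (adjusted p = 0.27), and with the set as a block -0.50 (adjusted p = 0.096). Limma did not call the other Clk4 probe set, 1422886_a_at, in any genotype comparison. Clk2 fell in 48 h transgenic prostate, from 370, 341, 331 and 389 in wild type to 289, 220, 261, 284 and 272 (log2 -0.44 ± 0.12, adjusted p = 0.00512). Clk3 was called at no time, and 1 transgenic placebo array of 15 d lists it at 0 where the other 6 read 303 to 379.

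Pcbp2 encodes a poly(C)-binding protein that acts on the stability and splicing of bound transcripts. On probe set 1421743_a_at at 12 h wild type read 1200, 1570, 1000 and 1110, and transgenic placebo 731, 853, 860 and 815. The groups did not overlap, and the log2 difference was -0.57 ± 0.13 (adjusted p = 0.00154). At 48 h wild type read 1050 to 1260 and transgenic placebo 654, 934, 927, 931 and 1030, again without overlap. That difference of -0.38 lost its call without wild type replicate 2 (-0.33, adjusted p = 0.0776) or transgenic placebo replicate 1 (-0.27, adjusted p = 0.0972). At 15 d it was -0.41 (adjusted p = 0.0189), -0.445 within set A (adjusted p = 0.159) and -0.505 with the array set as a block (adjusted p = 0.0416). The 15 d call was lost without wild type replicate 1 (adjusted p = 0.0585) or 3 (adjusted p = 0.0992).

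SR protein calls went both ways. At 12 h, 7 of 27 SR probe sets were higher in transgenic prostate and 1 was lower; at 48 h 3 were higher and 5 lower; at 15 d 4 were higher and 4 lower, of which none was called with the 15 d array set as a block. Over all roles 17 members changed at 12 h (18.1%), 13 higher and 4 lower, against 21.0% of all probe sets (10.8% and 10.2%). At 48 h 28 changed (29.8%), 4 higher and 24 lower, against 25.6% of all probe sets (11.4% and 14.2%). At 12 h the higher ones included Srsf10, an SR-like repressor of splicing, and Srsf1, the founding SR protein. Srsf10 (1418527_a_at) read 30.6, 41.4, 58.4 and 41.4 in wild type and 102, 97.5, 80.8 and 86.1 in transgenic placebo, a log2 difference of 1.12 ± 0.21 (adjusted p = 0.000182). Srsf1 (1430982_at) read 60.8, 69.4, 93.4 and 88.3 in wild type and 146, 168, 163 and 131 in transgenic placebo, a difference of 0.98 ± 0.19 (adjusted p = 0.00029). Neither pair of groups overlapped, and both calls held with any 1 of the 8 arrays left out. The SR probe set that fell was 1452371_at of Srsf11, whose product joins complexes at the splice sites: wild type read 696, 711, 756 and 683 and transgenic placebo 460, 475, 541 and 468 (-0.55 ± 0.10, adjusted p = 0.00014).

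Probe sets of 1 gene could differ in direction. Of the 24 genes with several tested probe sets, 3 had calls in both directions at 48 h, namely Srsf1, Srsf3 and Snrpd3. On Srsf1 probe set 1428099_a_at the wild type arrays of 48 h read 404, 386, 328 and 456, and transgenic placebo read 568, 602, 581, 526 and 536 (0.52, adjusted p = 0.00102). On 1428100_at of the same gene they read 103, 132, 146 and 132 in wild type and 40.8, 60.5, 76.3, 59.8 and 54.3 in transgenic placebo (-1.15 ± 0.19, adjusted p = 2.21e-05). The first was higher on every transgenic array and the second lower on every one. Srsf3, an SR protein that also acts in RNA export, had 2 probe sets lower and 1 higher. Its 1454993_a_at read 161, 184, 132 and 152 in wild type and 76.5, 89.7, 92.5, 85.3 and 92.1 in transgenic placebo (-0.84 ± 0.16, adjusted p = 0.000192), whereas 1438215_at differed by 0.29 (adjusted p = 0.0417). That small rise lost its call when any of 5 arrays was left out, with adjusted p up to 0.218 without wild type replicate 3. Which transcripts each probe set reads was not tested.

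**Figure D2:**
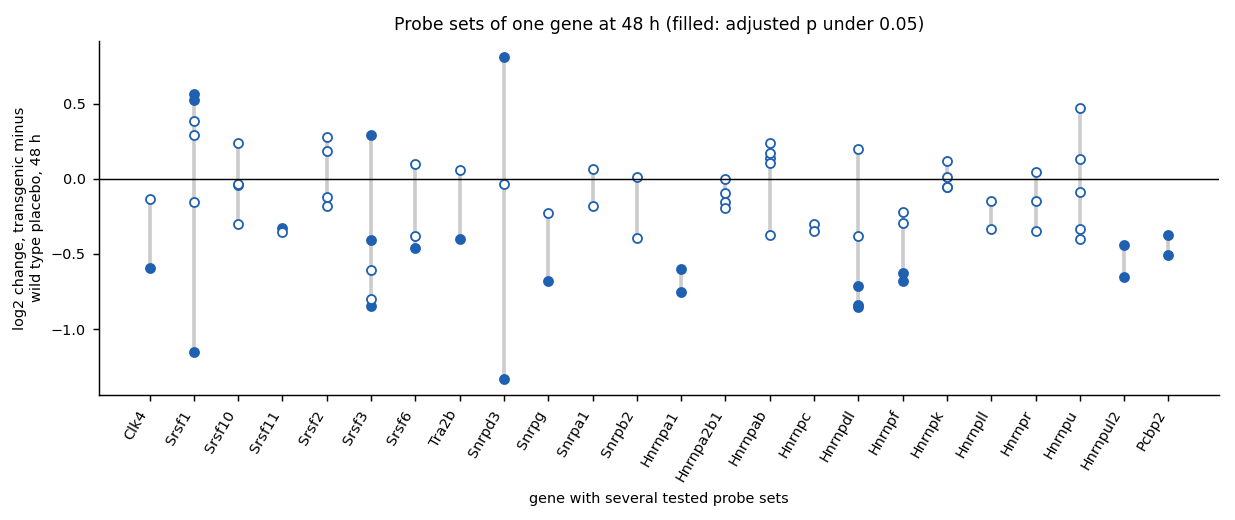
Log2 difference between transgenic and wild type placebo at 48 h for each tested probe set of the 24 genes that have several; filled points are those that changed (adjusted p under 0.05). Srsf1, Srsf3 and Snrpd3 have filled points on both sides of 0.

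Snrpd3 encodes one of the proteins of the Sm ring. Its probe set 1422884_at read 191, 187, 202 and 199 in wild type at 48 h and 84.2, 78.0, 66.8, 77.5 and 80.7 in transgenic placebo. No array of 1 group came near the other, and the log2 difference of -1.33 ± 0.19 (adjusted p = 5.3e-06) was the lowest of any member at that time. On 1422885_at of the same gene wild type read 30.4, 77.6, 88.4 and 88.6 and transgenic placebo 97.7 to 127 (0.81 ± 0.25, adjusted p = 0.0154). Without wild type replicate 1, at 30.4, that difference was 0.44 (adjusted p = 0.174). Snrpg, a further Sm protein, fell on 1448358_s_at from 768, 634, 685 and 706 to 467, 532, 371, 372 and 447 (-0.68 ± 0.13, adjusted p = 0.000238). Snrpc, a zinc finger protein of U1 snRNP, was lower at 12 h, with 1240, 1640, 1070 and 1050 in wild type against 840, 743, 724 and 692 in transgenic placebo (-0.72 ± 0.17, adjusted p = 0.00229).

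The hnRNP calls were of higher probe sets at 12 h and of lower ones at 48 h and 15 d. At 12 h 6 of 45 hnRNP probe sets were higher in transgenic prostate (13.3%, against 10.8% of all probe sets) and none lower (10.2% of all). At 48 h 11 were lower (24.4%, against 14.2%) and none higher (11.4%), and at 15 d 9 were lower (20%, against 10.9%) and none higher (10.1%). With the 15 d array set as a block none of those 9 was called. The change with time was tested for each probe set and passed for 10 of the 45, as given below. Hnrnpa2b1, a trafficking and splicing hnRNP, read 594, 646, 548 and 606 in wild type at 12 h and 956, 889, 1080 and 745 in transgenic placebo on 1420365_a_at. The groups did not overlap (0.60 ± 0.15, adjusted p = 0.00384). Hnrnpm, which binds G- and U-rich sequence, was higher by 0.88 ± 0.23 at 12 h (adjusted p = 0.00577), from 107 to 163 in wild type to 218 to 334. At 48 h Hnrnpdl, a close homologue of Hnrnpd, was lower on 3 probe sets. Its 1424251_a_at read 1320, 1140, 1330 and 1280 in wild type and 800, 791, 611, 534 and 851 in transgenic placebo, with every transgenic array below every wild type array. Hnrnpa1 (-0.76 and -0.60) and Hnrnpf (-0.68 and -0.63) were each lower on 2 probe sets at 48 h.

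At 15 d 22 of 94 members differed by genotype, 4 higher and 18 lower (23.4%), against 21.0% of all probe sets (10.1% higher and 10.9% lower). In 17 member probe sets (18.1%) all 7 transgenic placebo arrays lay below all 3 wild type arrays, against 6.21% of all probe sets, and in none did they all lie above (7.02% of all). These calls rested in part on set B, which holds no wild type array. With the set as a block 3 calls remained (Pcbp2, Snrpb and Snrpg), within set A limma called 0 of 94 with 11 at an unadjusted p under 0.05, and without wild type replicate 1 it called 9. The shares of all probe sets called under these settings are not given, here or for the SR protein and hnRNP probe sets above. The fewer calls are therefore not a result about the members. Srsf5, an SR protein that shuttles between nucleus and cytoplasm, read 1800, 1720 and 2300 in wild type. Transgenic placebo read 1750 and 1830 in set A and 716, 717, 685, 547 and 700 in set B, so the low arrays were those of set B. Its difference of -1.12 ± 0.25 (adjusted p = 0.00213) was -0.11 within set A (adjusted p = 0.849). Srsf2, which binds purine- and pyrimidine-rich exonic sequence, read 598, 547 and 701 in wild type and 283 to 470 in transgenic placebo on 1452439_s_at (-0.77 ± 0.15, adjusted p = 0.000612). Here the set A arrays, at 462 and 470, were also below all 3 wild type arrays, with a difference of -0.39 within the set (adjusted p = 0.29).

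The genotype effect differed with time for 24 of 94 members (25.5%) by limma's moderated F test, against 21.3% of all probe sets. SR proteins made up 13 of these, hnRNPs 10 and the Sm core 1. For Srsf3 1454993_a_at the effect was 0.09 at 12 h, -0.84 at 48 h and 0.60 at 15 d (adjusted p = 0.000617). The rise at 15 d lost its call without wild type replicate 1 (0.33, adjusted p = 0.241), within set A (0.20, adjusted p = 0.706) and with the set as a block (0.22, adjusted p = 0.546). For Srsf10 1418527_a_at the effects were 1.12, -0.30 and 0.45 (adjusted p = 0.00424). Restricting 15 d to set A, or taking the set as a block, gave 14 members with an effect that differed with time, against 9.16% and 9.91% of all probe sets.

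Time differences within wild type placebo stood beside these. Between 12 h and 48 h, 15 of 94 members changed, 12 up and 3 down, as did 16.4% of all probe sets (9.29% up and 7.15% down). In transgenic placebo limma called 0 of 94 members and 0 of 13574 probe sets, with 7 and 625 at an unadjusted p under 0.05. The smallest p there were those of Clk2 (-0.36), Hnrnpa2b1 1420365_a_at (-0.44), Clk1 (0.38) and Snrpd3 1449629_s_at (-0.27), with adjusted p from 0.805 to 0.999. Under RAD001 it called 0 members and 0.0368% of all probe sets (0.0221% up and 0.0147% down). At an unadjusted p under 0.05 there were 13 of 94 members and 1562 of 13574 probe sets. In wild type Srsf10 1418527_a_at went from the 12 h values above to 86.7, 114, 66.5 and 102 at 48 h (1.11 ± 0.21, adjusted p = 0.000671), without overlap. Snrpd3 1422884_at went from 95.9, 86.9, 122 and 88.0 to 191, 187, 202 and 199 (1.0 ± 0.20, adjusted p = 0.00118), while 1449629_s_at fell by 0.54 (adjusted p = 0.00254). Hnrnpm (0.93), Srsf1 1428100_at (0.86) and Hnrnpdl 1428225_s_at (0.73) also rose.

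**Figure D3:**
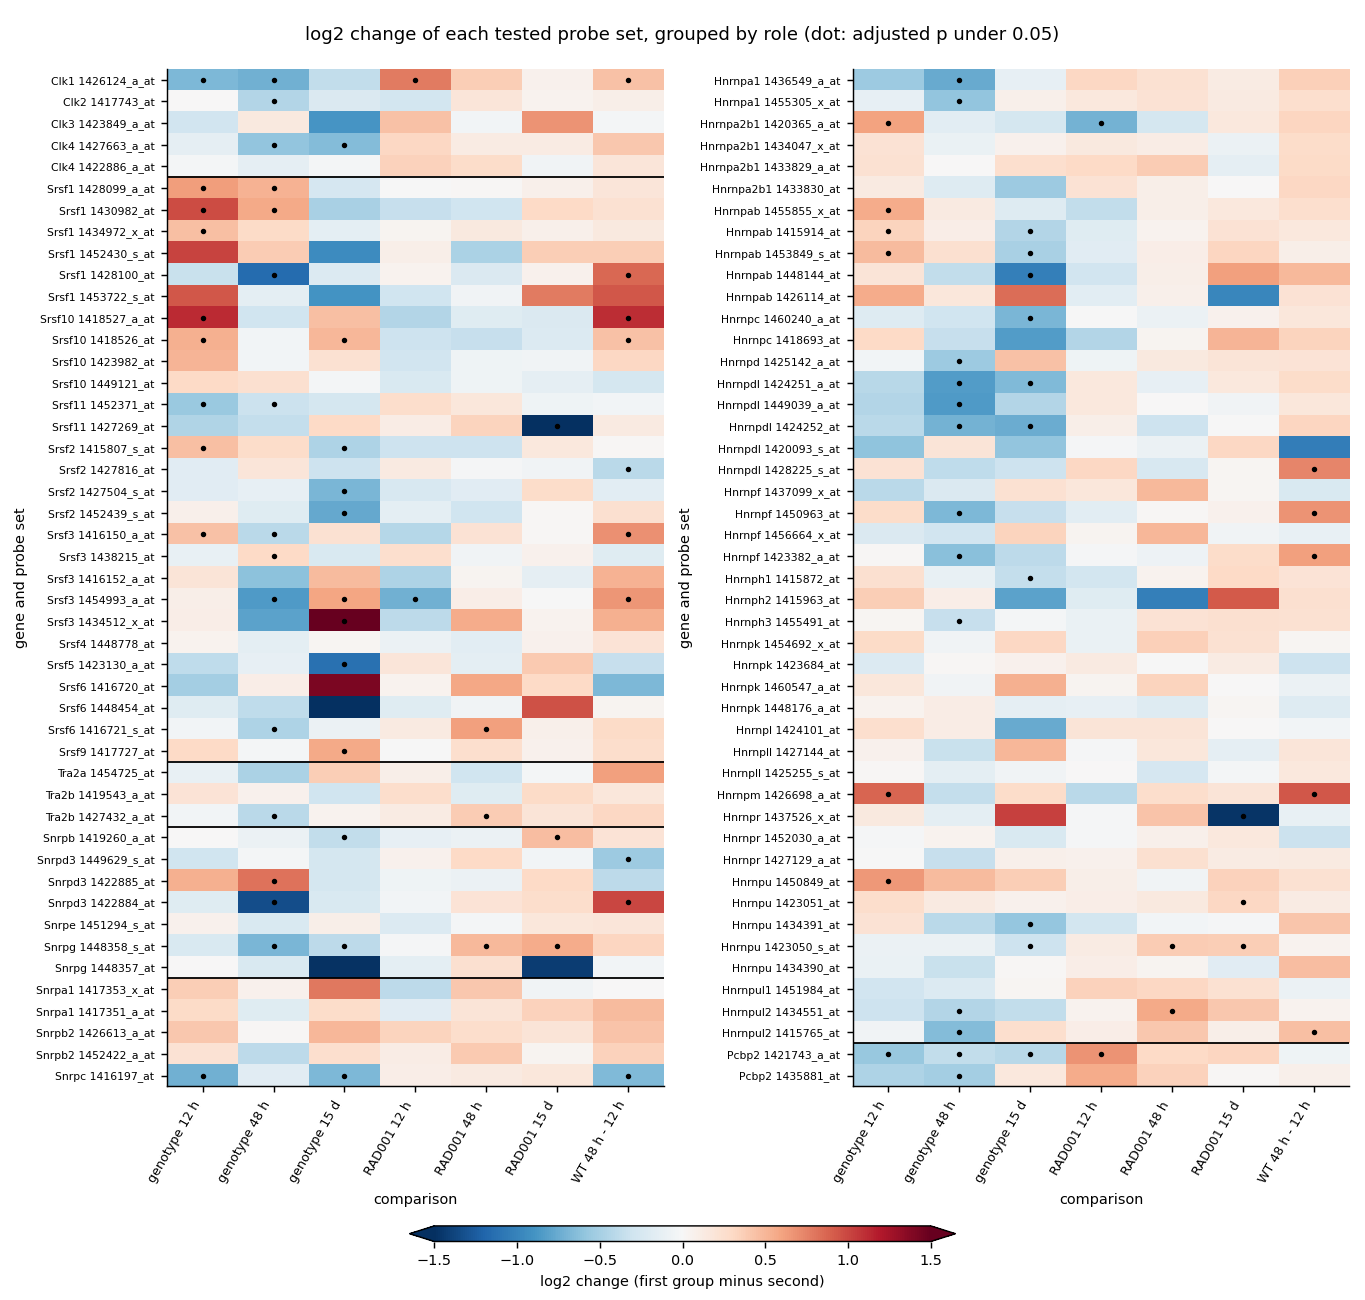
Log2 difference (colour, limited to 1.5 either way) of the 94 tested member probe sets, grouped by role, in the genotype comparisons (transgenic minus wild type placebo), the RAD001 comparisons (RAD001 minus placebo in transgenic mice) at 12 h, 48 h and 15 d, and wild type at 48 h minus 12 h; dots mark probe sets that changed (adjusted p under 0.05). Dots are dense in the genotype columns and few under RAD001, with 4 at 12 h, 5 at 48 h and 6 at 15 d.

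RAD001 changed few members. At 12 h 4 of 94 differed from transgenic placebo (4.26%), with 1 probe set each of Clk1 and Pcbp2 higher and 1 each of Hnrnpa2b1 and Srsf3 lower, against 1.47% of all probe sets (0.626% higher and 0.840% lower). The members' median log2 difference was 0.00 and that of all probe sets 0.02. Genotype and RAD001 comparisons share the transgenic placebo arrays, so their values are given side by side and no overlap between them is counted.

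Clk1 under RAD001 at 12 h read 369, 406, 417, 297 and 388, against 187, 174, 294 and 235 in transgenic placebo. All 5 treated arrays were above all 4 placebo arrays, though the nearest pair was 297 and 294. The log2 difference was 0.78 ± 0.14 (adjusted p = 0.00219, limma), beside a genotype difference of -0.67 at the same time, and wild type arrays ran from 320 to 402. The call held with each of the 9 arrays left out in turn, but with only the 2 groups in the fit the adjusted p was 0.0599. At 48 h RAD001 arrays read 345, 414, 384 and 326, with a difference of 0.36 ± 0.14 (adjusted p = 0.137), and at 15 d the difference was 0.06 (adjusted p = 0.818). Whether the RAD001 effect on Clk1 differed between times did not pass the test (adjusted p = 0.11). The other CLK probe sets differed at 12 h by 0.35 ± 0.13 and 0.31 (Clk4, adjusted p = 0.237 and 0.388), -0.28 (Clk2, 0.286) and 0.44 (Clk3, 0.851).

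Pcbp2 1421743_a_at read 1150, 1350, 1220, 1350 and 1460 under RAD001 at 12 h, against 731, 853, 860 and 815 in transgenic placebo. The groups were far apart, at 0.68 ± 0.12 on the log2 scale (adjusted p = 0.00255), beside a genotype difference of -0.57. On 1435881_at the difference was 0.55 ± 0.17 (adjusted p = 0.0973). At 48 h RAD001 arrays read 1170, 1290, 941 and 1000 (0.30, adjusted p = 0.177), and at 15 d they read 1100 to 1410 against 814 to 1310 with placebo (0.33 ± 0.10, adjusted p = 0.0527). Within set A that difference was 0.21 (adjusted p = 0.917), within set B 0.39 (adjusted p = 0.0744), and with the set as a block 0.33, which was called (adjusted p = 0.0372).

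The falls at 12 h were on 1 of 4 tested Hnrnpa2b1 probe sets and 1 of 5 of Srsf3. Hnrnpa2b1 1420365_a_at read 636, 522, 534, 413 and 730 under RAD001 at 12 h, against 956, 889, 1080 and 745 in transgenic placebo (-0.71 ± 0.15, adjusted p = 0.00782). The highest treated array was just below the lowest placebo array, and with only the 2 groups in the fit the adjusted p was 0.0758. The other 3 Hnrnpa2b1 probe sets were not called and had differences above 0, of 0.30 (1433829_a_at, adjusted p = 0.37), 0.15 (1434047_x_at, 0.765) and 0.21 (1433830_at, 0.825). On 1433829_a_at placebo read 686, 725, 735 and 664 and RAD001 943, 980, 998, 567 and 908, so that 4 of 5 treated arrays were above all placebo arrays and replicate 4 below. Srsf3 1454993_a_at read 59.9, 74.5, 56.6, 65.9 and 64.8 under RAD001 and 109, 97.0, 119 and 98.1 in transgenic placebo (-0.72 ± 0.16, adjusted p = 0.0169), without overlap. Wild type arrays of 12 h read 109, 97.2, 96.6 and 94 there, and the genotype difference at 12 h was 0.09. Without transgenic placebo replicate 1 the difference was -0.70 (adjusted p = 0.0605). Of the other Srsf3 probe sets, 3 differed by -0.39 to -0.46, and 1438215_at differed by 0.25 (adjusted p = 0.323), with 138, 162, 148, 160 and 152 under RAD001 above all of 128, 134, 128 and 122 in placebo; limma called none of these 4. At 48 h Srsf3 1454993_a_at read 92.6, 99.5, 87.9 and 91.9 under RAD001 and 76.5 to 92.5 in transgenic placebo.

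**Figure D4:**
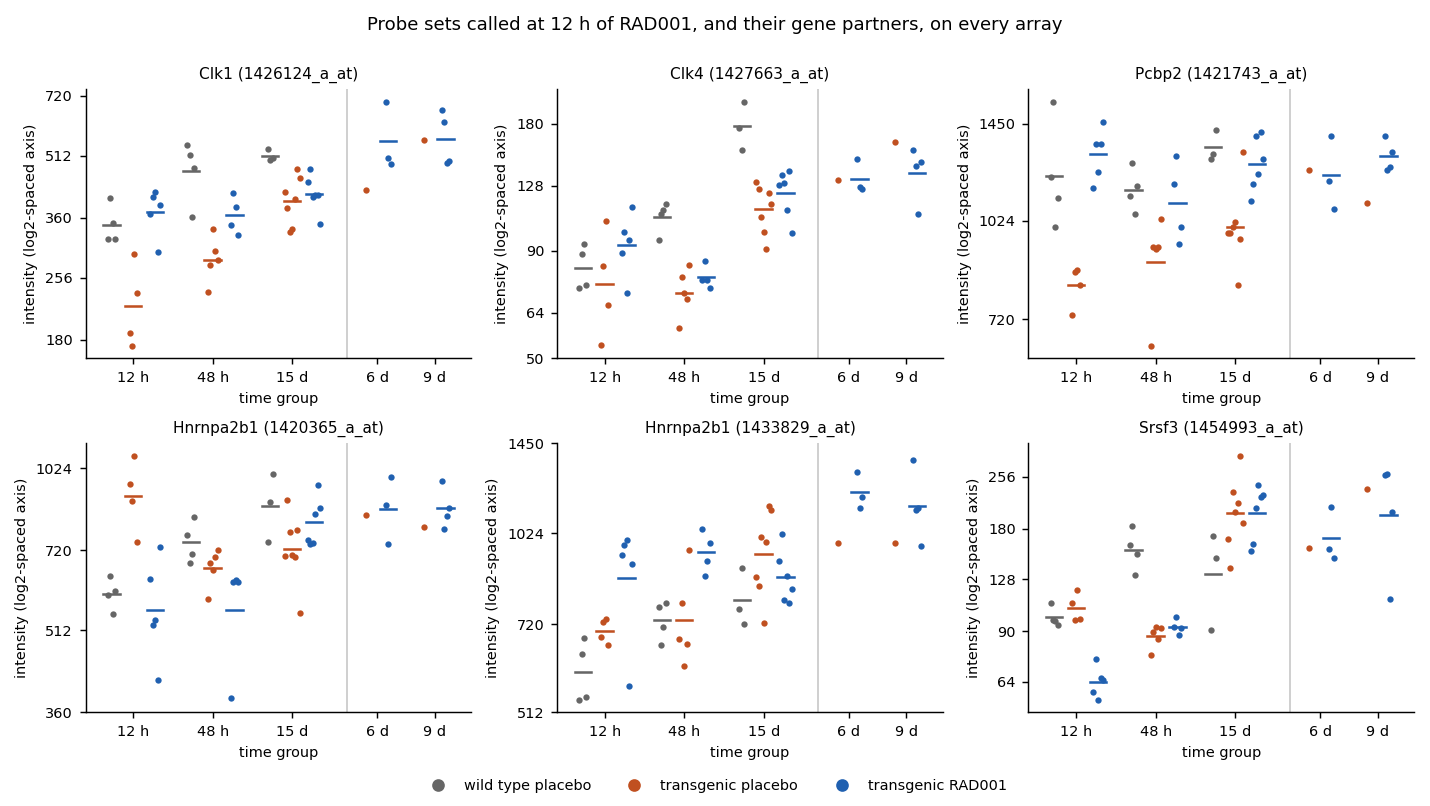
Scaled intensity on every array (log2-spaced axis) of Clk1, Clk4 1427663_a_at, Pcbp2 1421743_a_at, Hnrnpa2b1 1420365_a_at and 1433829_a_at, and Srsf3 1454993_a_at, by group and time, with bars at the geometric mean; the vertical line separates the 2 tables, which were scaled apart. At 12 h the RAD001 arrays of Clk1 (297 to 417) lie above placebo (174 to 294) and those of Srsf3 (56.6 to 74.5) lie below (97.0 to 119).

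At 48 h 5 of 94 members were higher under RAD001 and none lower (5.32%), against 3.45% of all probe sets (1.97% higher and 1.47% lower). They were Tra2b, an SR-like activator of exon inclusion, Srsf6, an SR protein, Snrpg of the Sm ring, Hnrnpu, a chromatin-associated hnRNP, and Hnrnpul2, its relative. Tra2b 1427432_a_at read 427, 483, 398, 398 and 396 in transgenic placebo and 506, 535, 557 and 583 under RAD001 (0.38 ± 0.11, adjusted p = 0.038). Wild type read 502 to 589 there. The other Tra2b probe set, 1419543_a_at, differed by -0.18 (adjusted p = 0.724) and Tra2a by -0.29 (adjusted p = 0.828). Snrpg 1448358_s_at read 467, 532, 371, 372 and 447 in placebo and 623, 511, 665 and 651 under RAD001 (0.49 ± 0.13, adjusted p = 0.0308), with 1 treated array inside the placebo range. Hnrnpu 1423050_s_at read 577, 543, 542, 539 and 604 in placebo and 735, 748, 776 and 668 under RAD001 (0.38 ± 0.10, adjusted p = 0.0327), without overlap. Hnrnpul2 1434551_at read 497, 451, 570, 465 and 428 against 666, 746, 779 and 662 (0.57 ± 0.16, adjusted p = 0.0401), also without overlap. Srsf6 1416721_s_at read 396, 348, 223, 205 and 281 against 478, 359, 413 and 496 (0.62 ± 0.17, adjusted p = 0.032), with 1 treated array inside the placebo range. Limma called no other probe set of Snrpg, Hnrnpu, Hnrnpul2 or Srsf6 at 48 h. These differed by 0.243 (Snrpg), 0.145, 0.044, -0.05 and -0.038 (Hnrnpu), 0.405 (Hnrnpul2), and 0.583 and -0.058 (Srsf6). None of the 5 calls survived leaving out transgenic placebo replicate 4, when adjusted p ran from 0.0772 (Hnrnpu, 0.37) to 0.12 (Srsf6, 0.51), and of the 9 arrays 5 (Snrpg) to 7 (Hnrnpul2) ended a call when left out.

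At 15 d 6 of 94 members differed (6.38%), 4 higher and 2 lower, against 5.53% of all probe sets (2.42% and 3.10%). The count turned on the array sets: within set A limma called 0 members (5 at an unadjusted p under 0.05, and 0.457% of all probe sets called), within set B 11 (5.85% of all), and with the set as a block 12, 9 higher and 3 lower (7.72% of all), among them all 6. In 4 member probe sets (4.26%) all 6 RAD001 arrays lay above all 7 placebo arrays, against 0.670% of all probe sets, and in none did they all lie below (1.27% of all). Snrpb, a protein of the Sm ring, read 732 and 769 in transgenic placebo of set A and 783, 791, 639, 512 and 655 in set B. RAD001 arrays read 871 and 842 in set A and 946, 975, 1080 and 1030 in set B, each above every placebo array. The log2 difference was 0.47 ± 0.08 (adjusted p = 0.00016), and it was 0.19 within set A (adjusted p = 0.673) and 0.59 within set B (adjusted p = 0.000191). Wild type read 871, 905 and 900, with a genotype difference of -0.37 (adjusted p = 0.00608), which was -0.39 with the set as a block (adjusted p = 0.0392) and -0.25 within set A (adjusted p = 0.158). With only the groups compared in the fit that genotype call was lost (adjusted p = 0.125). The RAD001 effect on Snrpb was -0.12 at 12 h and -0.09 at 48 h, and it was the 1 member whose effect differed with time (adjusted p = 0.00894), against 0.398% of all probe sets; next came Hnrnpa2b1 1420365_a_at (adjusted p = 0.0508), Clk1 (0.11) and Srsf3 1454993_a_at (0.116). Leaving out 1 array, such as transgenic placebo of 12 h replicate 3, raised that count to at most 2.

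Snrpg 1448358_s_at read 500 and 426 (set A) and 570, 559, 544, 564 and 540 (set B) in transgenic placebo at 15 d. Under RAD001 it read 653 and 658 in set A and 672, 857, 1010 and 867 in set B, again without overlap, with 669, 714 and 687 in wild type. The difference of 0.56 ± 0.11 (adjusted p = 0.00158) was 0.51 within set A (adjusted p = 0.35) and 0.60 within set B (adjusted p = 0.00529). The other tested Snrpg probe set, 1448357_at, went the other way, at -1.42 ± 0.59 (adjusted p = 0.165), with 4 of 6 RAD001 arrays and 2 of 7 placebo arrays listed at 0. It was -0.08 within set A (adjusted p = 0.999), -2.21 within set B (adjusted p = 0.0102) and -1.55 with the set as a block (adjusted p = 0.0214). Both Snrpb and Snrpg 1448358_s_at kept their calls with any of the 13 arrays left out. Snrpg 1448358_s_at and Hnrnpu 1423050_s_at were the member probe sets called under RAD001 at both 48 h and 15 d.

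Hnrnpu 1423050_s_at read 675, 654, 711, 680, 626, 629 and 687 in placebo and 881, 803, 750, 851, 941 and 957 under RAD001 at 15 d. All treated arrays were higher, by 0.37 ± 0.09 (adjusted p = 0.00719), with 0.34 within set A (adjusted p = 0.626) and 0.39 within set B (adjusted p = 0.0355). Hnrnpu 1423051_at was higher by 0.31 ± 0.08 (adjusted p = 0.0113, and 0.107 with only the groups compared in the fit), with 0.22 within set A (adjusted p = 0.718) and 0.37 within set B (adjusted p = 0.00777). The other tested Hnrnpu probe sets were not called, at 0.344 (1450849_at), -0.021 (1434391_at) and -0.165 (1434390_at). The members called lower rested on arrays listed at 0. Srsf11 1427269_at read 222, 223, 309, 297, 428, 444 and 361 in placebo and 191, 179, 301 and 332 on RAD001 replicates 1 to 4, and replicates 6 and 7 list it at 0. The difference of -1.69 (adjusted p = 0.0262) was -0.27 within set A (adjusted p = 0.999) and -2.35 within set B (adjusted p = 0.0147). Without replicate 6 or replicate 7 the adjusted p was 0.115 and 0.103, and without transgenic placebo replicate 8 or 9 it was 0.0542 and 0.0524. Hnrnpr 1437526_x_at read 108 to 344 in placebo and 86.7, 139, 186 and 235 under RAD001, with the same 2 arrays at 0. Its difference of -1.47 (adjusted p = 0.0415) was 0.02 within set A (adjusted p = 0.999) and -2.13 within set B (adjusted p = 0.0163). Its call was lost when any of 8 arrays was left out, with an adjusted p of 0.165 without RAD001 replicate 6. Limma did not call the other tested probe sets of these genes. They differed by -0.07 for Srsf11 (1452371_at), and by 0.157 (1452030_a_at) and 0.125 (1427129_a_at) for Hnrnpr.

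**Figure D5:**
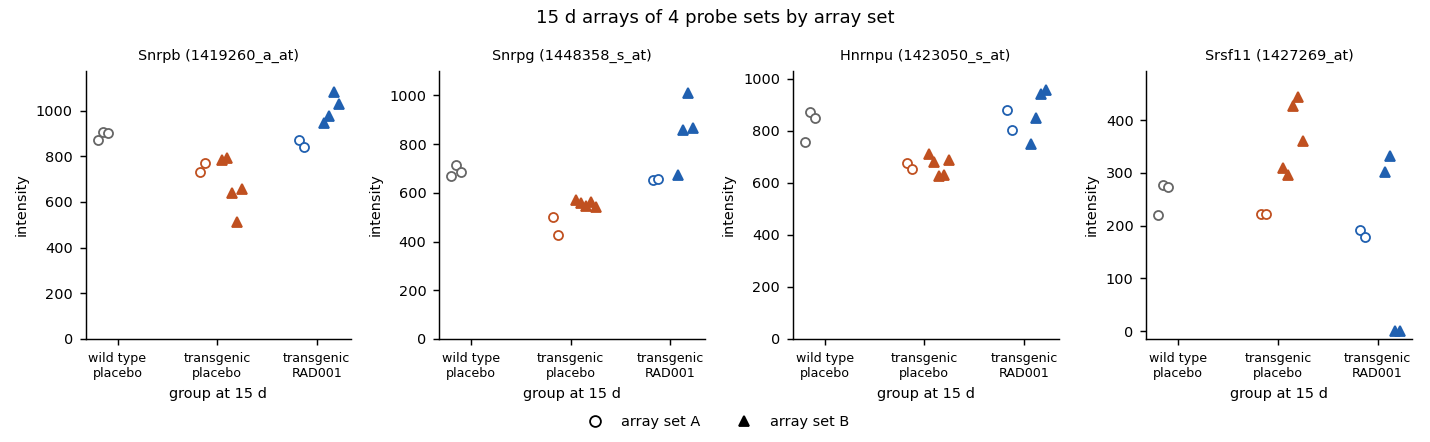
Scaled intensity on every 15 d array of Snrpb, Snrpg 1448358_s_at, Hnrnpu 1423050_s_at and Srsf11 1427269_at, by group, with circles for array set A and triangles for set B. RAD001 arrays of Snrpb (842 to 1080), Snrpg (653 to 1010) and Hnrnpu (750 to 957) lie above all transgenic placebo arrays, and 2 RAD001 arrays list Srsf11 at 0.

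On the smaller table of 6 d and 9 d, with 1 placebo array for each day, limma called 0 of 97 members and 9 had an unadjusted p under 0.05, against 0.803% of all probe sets called (0.258% higher and 0.545% lower). The spread in this fit came from the RAD001 arrays, so its p-values hold no variation between placebo samples. The share of members with an unadjusted p under 0.05 was near that of all probe sets. The members closest to a call were Hnrnpll, a regulator of splicing in lymphocytes, at -0.83 (1427144_at), and Snrpg 1448358_s_at at 0.83. Hnrnpll read 163 and 248 on the placebo arrays of 6 d and 9 d. Snrpg read 358 and 376 with placebo, and 825, 533 and 761 at 6 d and 599, 616, 620 and 625 at 9 d under RAD001, so that every treated array was above both placebo arrays. Hnrnpul2 1434551_at read 376 and 445 with placebo and 512 to 628 under RAD001, a log2 difference of 0.45. Clk1 read 422 and 559 with placebo and 489 to 697 under RAD001, with overlap. Leaving out RAD001 of 6 d replicate 2 gave 1 called member.

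Other genes of splicing were counted in lists. Among 88 probe sets of further spliceosome genes 3 were higher and 16 lower in transgenic prostate on average over times, among 20 probe sets of kinases and phosphatases of splicing factors 2 and 9, and among 93 of other splicing regulators 7 and 27. The shares called were 21.6%, 55% and 36.6%, against 33.5% of all probe sets. At 12 h the counts were 12 higher and 8 lower, 0 and 1, and 10 and 12, in that order, or 22.7%, 5% and 23.7% called against 21.0% of all. At 48 h they were 1 and 14, 1 and 5, and 4 and 23, or 17%, 30% and 29% against 25.6%. Prpf4b, a kinase of the spliceosome, had the lowest kinase values at 48 h, with -1.41 ± 0.18 on 1436427_at (adjusted p = 6.95e-07) and -1.16 on 1455696_a_at, and in wild type the same probe sets rose by 1.05 and 1.08 from 12 h to 48 h. Under RAD001 each list had 1 rise and no fall at 12 h (1.14%, 5% and 1.08% called, against 1.47% of all): Syf2, a protein of the spliceosome (0.55, adjusted p = 0.011), Prpf4b 1455696_a_at (0.74, adjusted p = 0.0353) and Matr3, a nuclear matrix protein (0.38, adjusted p = 0.0481). At 48 h the lists had 4, 2 and 3 rises and no fall (4.55%, 10% and 3.23%, against 3.45%), among them Syf2 (0.64, adjusted p = 0.00125) and Prpf39, a U1 snRNP factor (0.58, adjusted p = 0.0101). At 15 d they had 4, 1 and 4 rises and 1 fall (4.55%, 5% and 5.38%, against 5.53%), that of Luc7l (-0.38, adjusted p = 0.0329), and the rises included Prpf8, the core protein of the spliceosome (0.47, adjusted p = 0.000652), and Sf3b1, which binds the branch site (0.51, adjusted p = 0.00902).

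Cell type markers also moved under RAD001. Luminal markers had 3 of 9 probe sets lower at 12 h, 3 at 48 h and 1 at 15 d, against 0.840%, 1.47% and 3.10% of all probe sets. Their median log2 difference at 12 h was -0.063. Smooth muscle markers had 1, 1 and 4 of 10 higher, against 0.626%, 1.97% and 2.42% of all. Basal markers had 2 of 4 higher at 48 h and 1 at 15 d. Of 12 fibroblast probe sets 1 was higher at 48 h, and 2 were higher and 1 lower at 15 d. Of 6 leukocyte probe sets 1 was higher at 15 d. The summed smooth muscle level at 12 h ran from 8472 to 12320 under RAD001 and 5734 to 7894 in transgenic placebo, and the luminal sum from 17540 to 24830 and 24010 to 29970. At 15 d these were 7992 to 11330 against 5202 to 8767, and 19180 to 23850 against 22540 to 25580. Their part in the members' differences was not tested. Markers of the neighbouring seminal vesicle summed to low levels on 8 probe sets, with 110.8 to 198.8 over the wild type arrays.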

How the data were processed

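The deposited values were intensity per probe set on a linear scale, which the authors had scaled across arrays by a method that no source at hand states. Per the labels' protocols, total RNA was extracted with Trizol and labelled as biotin cRNA. Values were floored at 16 and log2-transformed, and 22626 probe sets were common to both tables, which were fitted apart. Probe sets were tested singly where their mean log2 value was at or above the 40th percentile of the table, with limma 3.58.1 in R 4.3.3 (1 fit for each table, eBayes with a trend, Benjamini-Hochberg over all probe sets tested, threshold 0.05). Among the 42 arrays, 3 values beyond the scanner's range led to their probe sets being left out, and 28 values below 0 in the smaller took the floor. Symbols came from the platform annotation: 20380 probe sets had 1 symbol, 691 several and 1555 none. Precision is limited by how many arrays a group has.

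Any member could be named. Values were chosen from the called members (up to 10 rises and 10 falls for each comparison), the probe sets of Clk1 to Clk4, Tra2a, Tra2b and Pcbp2, the 4 members with the smallest p where fewer than 4 were called, and up to 6 members of each further list; not all of these are given. Members and lists were chosen with earlier results of these data known. Replicate numbers were checked for pairing by the correlation of the deviations of same-numbered arrays. For RAD001 and transgenic placebo at 15 d it ran from -0.01 to 0.51, with 2 of 4 shared numbers over 0.1. In the other pairs of groups it ran from -0.25 to 0.09. At 15 d replicates 1 and 2 of both transgenic groups were in set A and the higher numbers in set B, so number and set go together there. The main fits took the samples as unpaired. The fit was tested on simulated data in which 200 probe sets were changed, by 1 or by 0.5 on the log2 scale. Of those changed by 1 it recovered 91% for genotype averaged over times, 76% for RAD001 at 12 h, 88% for RAD001 at 15 d and 38% for 6 d and 9 d. Of those changed by 0.5 it recovered 70%, 35%, 42% and 3%, in that order. The simulated noise was independent between arrays, without array sets or listed zeros, so recovery on the real 15 d arrays was not tested. Alternatives covered the filter, the floor, the normalisation, array weights, 1 probe set per gene, the arrays in the fit, a replicate block, the sets of 15 d arrays and probe sets listed at 0.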

Additional observations from a re-analysis of the deposited data

Results flagged for a closer look

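Of 270 groups of values from 30 probe sets, 19 had 1 array far from the others by Dixon's criterion, and chance alone gives about 1 in 20. Among wild type arrays, Srsf1 1428100_at read 41.7 on replicate 4 at 12 h (others 82.2 to 84.2), and Srsf3 1416150_a_at read 200 on replicate 3 at 48 h (others 268 to 279). In transgenic placebo at 48 h, Pcbp2 1421743_a_at read 654 on replicate 1 (others 927 to 1030) and Snrpb read 776 on replicate 5 (others 865 to 876). At 15 d replicate 9 of transgenic placebo, 1 of 4 arrays with over 500 exact zeros, stood apart for Clk3 (0, others 303 to 379), Clk4 1422886_a_at (288, others 168 to 210) and Srsf3 1416150_a_at (449, others 267 to 311). Replicate 6 read 450 for Srsf11 1452371_at (others 546 to 619).

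Under RAD001 at 12 h, replicate 4 was low for 3 hnRNP probe sets: Hnrnpa2b1 1433829_a_at at 567 (others 908 to 998), Hnrnpu 1423050_s_at at 396 (others 582 to 680) and Hnrnpul2 1434551_at at 249 (others 594 to 661). Srsf2 1452439_s_at read 624 on replicate 5 (others 397 to 452). At 48 h the values that stood apart were Srsf1 1428099_a_at at 639 on replicate 2 (others 541 to 551), Srsf10 1418527_a_at at 75.9 on replicate 4 (others 60.6 to 61.6), Snrpb at 876 on replicate 5 (others 769 to 776) and Hnrnpa2b1 1420365_a_at at 382 on replicate 1 (others 629 to 635). At 15 d replicate 7 read 107 for Srsf1 1428100_at (others 126 to 139) and 293 for Srsf2 1452439_s_at (others 362 to 408), and at 9 d replicate 3 read 90.6 for Srsf1 1428100_at (others 138 to 141).

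Effects of genotype differed between 12 h, 48 h and 15 d by limma's moderated F test for 9 of these probe sets. For Srsf1 the log2 effects were 0.63, 0.52 and -0.26 on 1428099_a_at (adjusted p = 0.00149), -0.34, -1.15 and -0.20 on 1428100_at (adjusted p = 0.0183), and 0.98, 0.56 and -0.49 on 1430982_at (adjusted p = 0.00149). For Srsf2 1452439_s_at they were 0.08, -0.18 and -0.77 (adjusted p = 0.0143). Srsf3 had 0.09, -0.84 and 0.60 on 1454993_a_at (adjusted p = 0.000617) and 0.44, -0.41 and 0.23 on 1416150_a_at (adjusted p = 0.012). Srsf10 1418527_a_at had 1.12, -0.30 and 0.45 (adjusted p = 0.00424), Snrpd3 1422884_at -0.18, -1.33 and -0.23 (adjusted p = 0.00537), and Hnrnpa2b1 1420365_a_at 0.60, -0.16 and -0.27 (adjusted p = 0.00762). The RAD001 effect on Snrpb was -0.12, -0.09 and 0.47 (adjusted p = 0.00894).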

How the results depend on the processing

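Counts are of member probe sets called by limma, with the count of the report in brackets. The share of all probe sets called under each setting is not given in this section. A count that rises or falls here is therefore not a result about the members. With 1 probe set per gene, which leaves 41 members, 17 were called for genotype averaged over times (32), 8 at 12 h (17), 13 at 48 h (28) and 11 at 15 d (22). Under the same choice RAD001 had 2 at 12 h (4), 3 at 48 h (5) and 3 at 15 d (6), wild type time had 5 (15), and the genotype effect by time had 6 (24). With array weights the counts were 30 for genotype at 12 h, 12 for RAD001 at 12 h, 9 for RAD001 at 48 h, 3 at 6 d and 9 d (0), 1 for RAD001 at 48 h against 12 h (0), 38 for genotype by time and 5 for RAD001 by time (1). With only the groups compared in the fit they were 7 for genotype at 15 d, 2 for RAD001 at 12 h, 2 for RAD001 at 48 h and 23 for wild type time.

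Within array set A, 0 were called for genotype at 15 d, 0 for RAD001 at 15 d and 0 for RAD001 by time, and 14 for genotype by time. There the genotype difference of Hnrnpu 1434391_at turned from -0.58 to 0.023 (adjusted p = 0.989), and the RAD001 difference of Hnrnpr 1437526_x_at from -1.47 to 0.016 (adjusted p = 0.999). With the set as a block the counts were 3 for genotype at 15 d, 12 for RAD001 at 15 d, 14 for genotype by time and 3 for RAD001 by time, and within set B 11 for RAD001 at 15 d. These settings were chosen after the data were seen, as was leaving out probe sets listed at 0 on any array, which gave 2 for RAD001 at 6 d and 9 d and 2 for RAD001 by time.

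The replicate number as a replicate block gave 6 for genotype at 15 d and 0 for RAD001 by time. It gave 30 for genotype averaged over times, 21 at 12 h, 29 at 48 h, 16 for genotype by time, 5 for RAD001 at 12 h, 4 at 48 h, 4 at 15 d and 0 in the smaller table. For RAD001 at 6 d and 9 d the count was 2 with no filter, 2 with a floor of 64, 1 after quantile normalisation and 1 without the arrays with over 500 zeros. RAD001 by time had 2 with the filter at the 60th percentile and 2 with a floor of 64.

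Leaving out 1 array gave 9 to 32 for genotype at 15 d (without wild type replicate 1 and transgenic placebo replicate 2), 0 to 5 for RAD001 at 48 h, 0 to 1 at 6 d and 9 d and 1 to 2 for RAD001 by time. The range was 29 to 36 for genotype averaged over times, 13 to 22 at 12 h, 22 to 29 at 48 h, 3 to 5 for RAD001 at 12 h and 4 to 9 at 15 d. Of the single probe sets named, 2235 values with 1 array left out kept direction and side of the threshold, 222 lost the call and 16 gained it. Under the other settings 2190 kept both, 176 lost the call, 42 gained it and 2 turned direction. The cause of these changes was not tested. Probe sets near the floor of 16 carry little signal over background, so small differences there were not detectable.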
